A study of Mus musculus with 12 samples.

Results

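Livers of mice given concanavalin A (Con A) together with mesenchymal stromal cells (MSC) were compared, at 12 h, with livers of mice given Con A alone. Con A is a plant lectin that activates T cells when injected into the blood and so causes an acute immune injury of the liver. MSC are stromal cells of bone marrow and other connective tissues that are studied for their capacity to restrain immune cells. The comparison takes the 3 libraries labelled Con A+MSC 12h and the 3 labelled Con A 12h, which are 6 of the 12 libraries of the study, and covers every gene in the count tables. Both groups were C57BL/6 wild-type mice, both received Con A, and they differ in the treatment label, with MSC or without MSC. The other 6 libraries are the same 2 treatments at 6 h. They contributed to the estimate of the spread between replicates and to the comparison of the 2 times. The labels do not name the source, species, dose or route of the MSC, nor the age and sex of the mice. Livers without Con A were not analysed here, so no value is a change from an uninjured liver. Nothing in the labels ties each replicate to an animal of its own, so a p-value here speaks of the spread among these libraries, which may be technical.

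Hepatocytes make up most of the liver. They face blood channels, the sinusoids, that are lined by a perforated endothelium and hold Kupffer cells, the resident macrophages, while stellate cells lie between the endothelium and the hepatocytes and are the main source of collagen. In Con A injury activated T cells and macrophages release cytokines, the sinusoidal lining is damaged, and hepatocytes switch on acute phase and stress genes while lowering part of their metabolic programme. RNA of a whole liver mixes all these cells. In such data fewer cells of a type and less RNA per cell cannot be told apart.

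The 6 libraries held between 29688137 and 36131512 counts. Hepatocyte genes dominated each of them, with albumin (Alb) between 18950 and 33822 CPM (counts scaled to a library of 1000000 with the TMM factors of edgeR). The series text speaks of hepatocyte RNA and the labels of liver tissue, and markers of endothelial cells (Stab2, 10.6 to 23.6 CPM) and stellate cells (Reln, 2.78 to 7.86 CPM) were present in every library. Genes of neighbouring organs were low but not all near 0. A list of 16 exocrine pancreas genes summed to 7.61 to 14.9 CPM with MSC and 17.8 to 33.3 CPM without. Of the 4 that were tested 1 fell, and Cela1 had 2.54 to 4.59 CPM across the libraries. A list of 12 fat and muscle genes summed to 0.704 to 9.35 CPM with MSC and 1.05 to 1.35 CPM without. The pancreatic Prss2 had no count in any library and Cpa1 and Pnlip had counts in 1 of 6, while the fat gene Adipoq reached 2.28 CPM and the bile duct gene Krt19 reached 7.27 CPM in Con A+MSC replicate 2. Mitochondrially encoded genes took 9.46%, 7.06% and 6.71% of the counts with MSC (7.74 ± 1.49%, mean ± SD, n = 3) and 5.59%, 17.3% and 24.9% without MSC (16.0 ± 9.74%, n = 3). These shares overlapped between the groups (exact permutation test, two-sided, p = 0.40, where 3 against 3 cannot go below 0.10). Con A replicate 1, which had the lowest share, also stood apart from its group in a principal component analysis of the 500 most variable genes. On the first component, 45.9% of the variance, it lay at -3.28, with Con A replicates 2 and 3 at -30.8 and -32.6 and the MSC libraries at 7.61, 31.9 and 27.3.

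Of 23574 entries in the tables, 14275 had enough counts to be tested and 9299 did not. With MSC, 327 of them were higher and 255 were lower (edgeR quasi-likelihood test, Benjamini-Hochberg adjusted p below 0.05 over all tested genes). That is 4.08% of the genes tested, 2.29% higher and 1.79% lower, and in the text "rose" and "fell" are used only of genes that passed this test. At an unadjusted p below 0.05 there were 1664 higher and 1482 lower. For 26.4% of all genes tested the 3 libraries of one group all lay above the 3 of the other. These included all 327 genes that rose and 254 of the 255 that fell. A lack of overlap is thus no separate evidence for a gene that passed. Among the genes that rose, 262 changed more than 2-fold, and among those that fell, 123 did. The median change on the log2 scale, where 1 is a doubling, was 1.37 for genes that rose and -0.98 for genes that fell. Changes are given below as log2 ± standard error, and the levels of the 3 libraries of a group are given in the order of their replicate numbers.

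**Figure D1:**
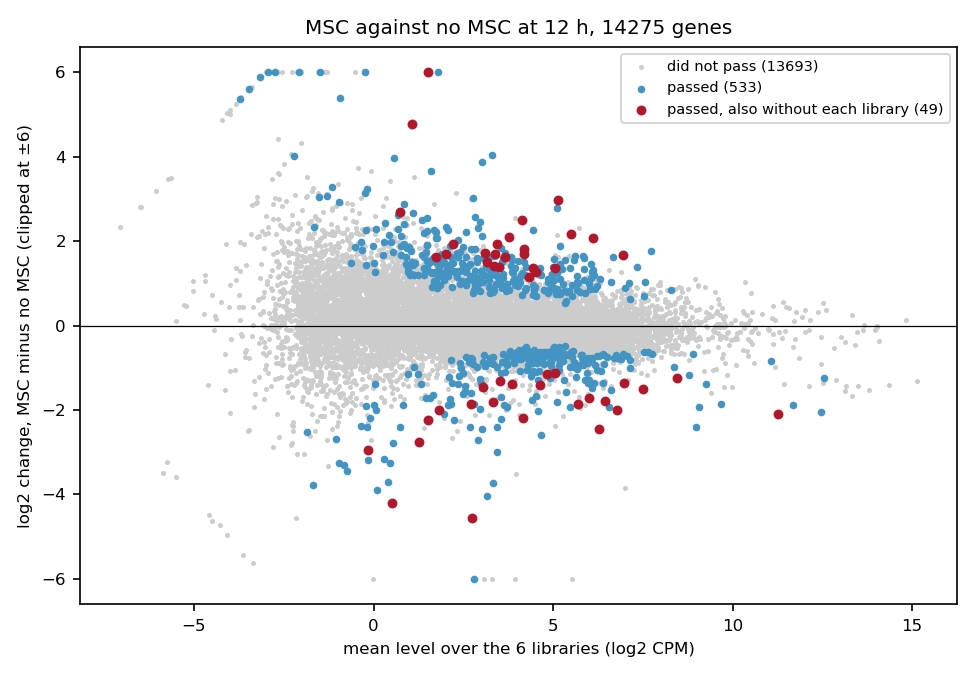
Each point is 1 of the 14275 genes tested (the 2 without a count at 12 h are not drawn), with its mean level over the 6 libraries (log2 CPM) on the x axis and its log2 change with MSC on the y axis, clipped at 6 in either direction. The 582 genes that passed lie on both sides of 0, and the 49 that also passed with each library left out in turn are drawn in red.

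The number of genes that passed depended on single libraries and on scaling. Dropping Con A replicate 2 left 39 genes higher and 45 lower. The counts were 71 and 59 when Con A+MSC replicate 2 was dropped and 37 and 29 when Con A+MSC replicate 3 was. Dropping one of the other 3 libraries gave 437 and 495 (Con A replicate 1), 209 and 105 (Con A replicate 3) and 572 and 489 (Con A+MSC replicate 1). With the mitochondrial share as a covariate 59 were higher and 55 lower, of which 39 and 46 were among the genes reported. Scaling by total counts in place of TMM moved the median of all genes from 0.00 to 0.26 and gave 734 higher and 95 lower, so the share of higher calls depends on the scaling. A core of 49 genes, 25 higher and 24 lower, passed with each of the 6 libraries left out in turn, 8 of them assembled loci without a gene symbol.

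**Figure D2:**
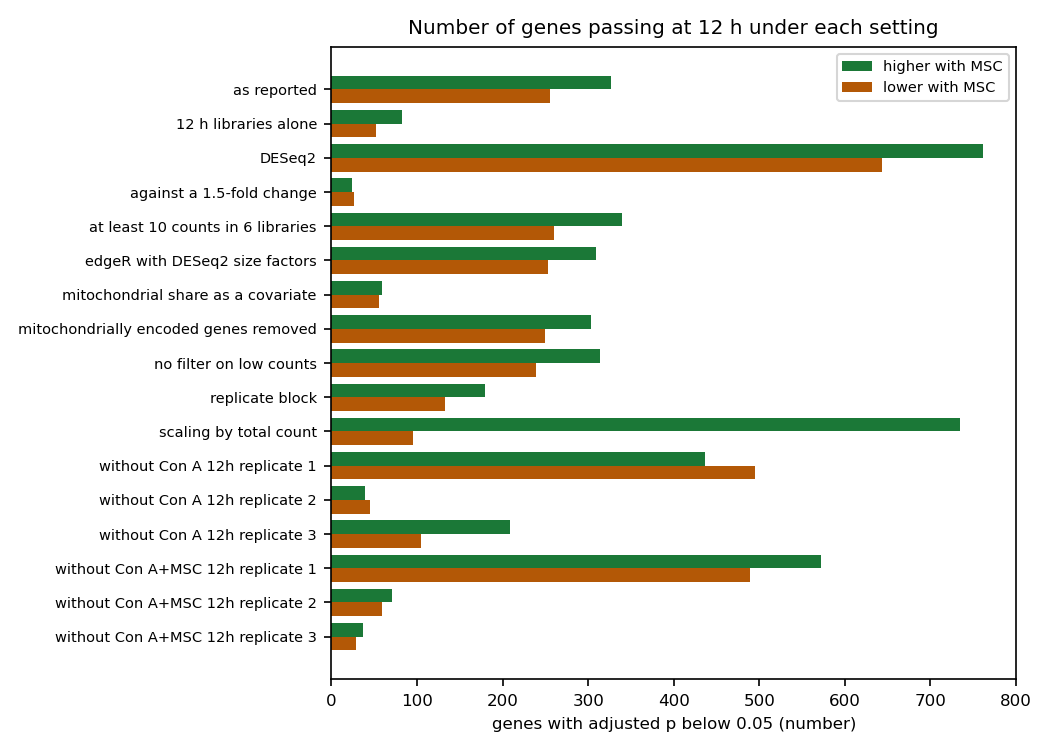
Bars give the number of genes with an adjusted p below 0.05 in each direction for MSC against no MSC at 12 h, as reported and under each other setting. The counts run from 24 higher and 26 lower when tested against a 1.5-fold change to 762 higher and 643 lower with DESeq2.

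Genes of the blood vessel lining were higher with MSC. Of 17 sinusoidal endothelial markers tested 7 rose and 0 fell, with a median log2 change of 1.25 where the median of all genes was 0.00. Of 16 general vascular endothelial markers 7 rose and 0 fell, with a median of 1.27, and all 16 differences were above 0. Plvap encodes the protein of the diaphragms that close endothelial pores. It had 30.2, 26.5 and 26.1 CPM with MSC and 10.6, 13.6 and 12.9 CPM without, a narrow range in each group with no overlap (log2 1.16 ± 0.16, edgeR adjusted p = 0.00667). Flt4 encodes the receptor for vascular endothelial growth factor C. Its levels were 6.80, 5.81 and 5.81 CPM with MSC and 1.76, 1.51 and 2.44 CPM without (log2 1.69 ± 0.24, edgeR adjusted p = 0.00667), so the lowest library with MSC held more than double the highest without. Kdr, the main receptor for vascular endothelial growth factor A, had 3.96, 6.55 and 5.40 CPM with MSC and 1.33, 0.656 and 1.29 CPM without (log2 2.27 ± 0.37, edgeR adjusted p = 0.0117). The groups did not overlap for either receptor gene, as for all 327 genes that rose. Dnase1l3, a secreted nuclease that degrades DNA in the blood, had 24.1, 30.1 and 34.9 CPM with MSC and 5.69, 3.02 and 7.07 CPM without (log2 2.50 ± 0.35, edgeR adjusted p = 0.00667). The sums of the 17 sinusoidal markers were 152.6 to 193.5 CPM with MSC and 75.5 to 88.7 CPM without.

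Further genes expressed in vessel walls rose. Tinagl1, a matrix protein of vessel walls, had 22.9, 31.6 and 29.0 CPM with MSC and 9.22, 5.97 and 10.8 CPM without (log2 1.69 ± 0.23, edgeR adjusted p = 0.00667). Gimap4, a GTPase known from lymphocytes and also found in endothelium, had 11, 14.3 and 14.1 CPM with MSC and 3.78, 3.05 and 5.18 CPM without (log2 1.72 ± 0.24, edgeR adjusted p = 0.00667). Robo4, a guidance receptor that stabilises vessels, had 5.76, 9.66 and 7.34 CPM with MSC and 3.22, 2.69 and 3.33 CPM without (log2 1.30 ± 0.22, edgeR adjusted p = 0.0124). Cdh5, which encodes VE-cadherin, a junction protein of endothelial cells, had 10.7, 13.7 and 12.7 against 4.83, 2.07 and 5.36 CPM (log2 1.60 ± 0.34, edgeR adjusted p = 0.0287). Jam2, another junction protein, chosen after its values were seen, had 14.5, 14.9 and 10.6 against 5.92, 3.67 and 4.44 CPM (log2 1.51 ± 0.22, edgeR adjusted p = 0.00734). Icam2 (log2 1.94), an adhesion molecule, Tie1 (1.23), a receptor of the angiopoietin system, and Oit3 (2.44), a secreted protein of sinusoidal endothelium, also rose. Ligands that endothelium supplies to hepatocytes and neighbouring cells (Wnt2, Rspo3, bone morphogenetic proteins, Notch ligands) did not pass. Of 10 tested 0 rose or fell, with a median of 0.77, and Wnt9b and Jag2 were not tested. The number that rose was 2 of 17 (sinusoidal) and 0 of 16 (vascular) without Con A replicate 2, 3 and 1 without Con A+MSC replicate 2 or replicate 3, and 4 and 0 when the mitochondrial share entered the model. Plvap, Flt4, Dnase1l3, Tinagl1, Gimap4 and Jam2 passed with each library left out.

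**Figure D3:**
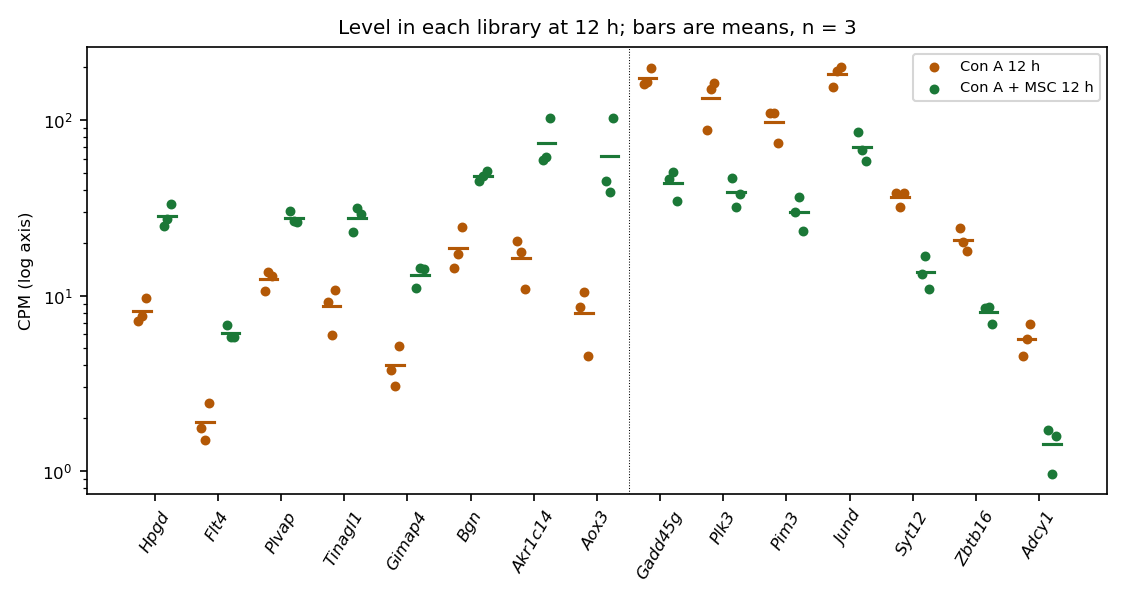
Level (CPM, log axis) of 8 genes that rose and 7 that fell, taken from those with the smallest p, in each of the 3 libraries without MSC and the 3 with MSC at 12 h, with short bars for the means. Left of the dotted line are genes that rose and right of it genes that fell. For each gene the groups do not overlap, as for nearly all genes that passed.

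Genes of prostaglandin metabolism included the rise with the smallest p-value of any gene with a symbol. Hpgd encodes the dehydrogenase that inactivates prostaglandins. It had 25.0, 27.4 and 33.2 CPM with MSC and 7.20, 7.68 and 9.65 CPM without (log2 1.81 ± 0.22, edgeR adjusted p = 0.00300), so every library with MSC held more than 2-fold the level of any library without, and it passed with each library left out. Ptgs1, the constitutive cyclooxygenase that starts prostaglandin synthesis, had 3.21, 2.83 and 3.28 CPM with MSC and 1.12, 0.787 and 1.52 CPM without (log2 1.44 ± 0.36, edgeR adjusted p = 0.0461). Tbxas1, thromboxane synthase, had 1.30, 1.42 and 2.48 CPM with MSC and 0.357, 0.361 and 0.333 CPM without (log2 2.30 ± 0.52, edgeR adjusted p = 0.0332). Of 17 genes of this list 3 rose and 0 fell, with a median of 0.68. Only Hpgd of them passed when Con A replicate 2, Con A+MSC replicate 2 or Con A+MSC replicate 3 was left out.

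Collagen and matrix genes formed the list with the most rises. Of 18 tested 9 rose and 0 fell, with a median of 1.86. Bgn encodes biglycan, a small proteoglycan that binds collagen. It had 45.2, 48.0 and 51.0 CPM with MSC and 14.5, 17.2 and 24.5 CPM without (log2 1.36 ± 0.18, edgeR adjusted p = 0.00667), with similar levels in the 3 libraries with MSC and no overlap. The fibrillar collagen gene Col3a1 had 17.2, 54.2 and 36.7 CPM with MSC and 9.27, 5.09 and 7.99 CPM without (log2 2.27 ± 0.41, edgeR adjusted p = 0.0156). Col1a1, the main collagen of scar, had 5.01, 22.0 and 12.7 CPM with MSC and 2.43, 1.61 and 3.18 CPM without (log2 2.46 ± 0.47, edgeR adjusted p = 0.0188). For both collagens Con A+MSC replicate 2 was highest and replicate 1 lowest of its group, and all 3 were above the libraries without MSC. Col1a2 (log2 2.31), Col5a2 (2.61) and Col14a1 (1.94) also rose. Markers of the mesothelium, the outer cover of the liver, had a median of 1.94 with 0 of 10 passing, and their summed level, mostly keratins 8 and 18, was 609 to 891 CPM with MSC and 705 to 1239 CPM without. The part of such connective tissue in the collagen levels was not tested. The number that rose was 2 without Con A replicate 2, 3 without Con A+MSC replicate 2 or 3, and 1 when the mitochondrial share entered the model.

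Of 15 stellate cell and fibroblast markers 5 rose and 0 fell, with a median of 0.97. Lum, the proteoglycan lumican, had 1.46, 4.07 and 3.14 CPM with MSC and 0.638, 0.262 and 0.407 CPM without (log2 2.70 ± 0.43, edgeR adjusted p = 0.00873). Dcn, decorin, had 61.8, 82.4 and 62.0 CPM with MSC and 27.2, 31.7 and 44.5 CPM without (log2 1.0 ± 0.19, edgeR adjusted p = 0.0188). Reln, reelin, which marks stellate cells in the liver, had 5.19, 7.69 and 7.86 CPM with MSC and 2.78, 3.02 and 3.51 CPM without (log2 1.16 ± 0.24, edgeR adjusted p = 0.0265), and Rgs5, a regulator of G protein signalling known from pericytes, changed by 1.28. Lrat, the enzyme by which resting stellate cells store vitamin A, had 2.82, 2.30 and 2.24 CPM with MSC and 2.96, 2.26 and 1.74 CPM without, and these ranges overlapped. The rise thus covered part of the stellate cell list, and 1 of 15 rose when Con A replicate 2, Con A+MSC replicate 2 or Con A+MSC replicate 3 was left out.

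Regulators of the matrix changed as well. The metalloproteinase inhibitors Timp3 (45.3, 58.0 and 44.0 against 19.3, 12.1 and 17.9 CPM; log2 1.58 ± 0.33, edgeR adjusted p = 0.0256) and Timp2 (log2 1.93) rose. Of 15 matrix enzymes and inhibitors 2 rose and 1 fell, with a median of 0.86. In that list 0 rose without Con A replicate 2, Con A+MSC replicate 2 or Con A+MSC replicate 3. In the pathway of transforming growth factor beta (TGF beta) the ligand gene Tgfb1 had 9.91, 8.72 and 9.42 against 3.19, 2.62 and 4.44 CPM (log2 1.45 ± 0.26, edgeR adjusted p = 0.0156), and its receptor gene Tgfbr2 had 8.06, 10.3 and 10.5 against 3.78, 3.77 and 7.32 CPM (log2 0.97 ± 0.25, edgeR adjusted p = 0.0498). Fst, follistatin, which binds and blocks activin, fell, with 3.70, 2.37 and 3.32 against 7.69, 10.1 and 19.5 CPM (log2 -1.99 ± 0.45, edgeR adjusted p = 0.0345). The other 13 of 16 genes of the TGF beta list did not pass, and its median was 0.11. None of these 16 passed without Con A replicate 2 or Con A+MSC replicate 3.

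Some genes used as surface markers of cultured MSC rose. Of 13 tested, 5 rose and 0 fell, with a median of 0.71. Mcam, an adhesion molecule of pericytes and endothelium, had 3.55, 7.16 and 5.76 CPM with MSC and 1.51, 1.12 and 0.888 CPM without (log2 2.22 ± 0.41, edgeR adjusted p = 0.0168), and Ngfr, the low-affinity nerve growth factor receptor, changed by 1.85. Ly6a, Cd44 and Eng rose by 1.47, 1.29 and 0.71. Eng, Mcam and Ly6a are also made by endothelium, Cd44 by leukocytes and Ngfr by stellate cells. The species of the MSC is not given, so RNA of given and of resident cells cannot be told apart. With Con A replicate 2, Con A+MSC replicate 2 or Con A+MSC replicate 3 left out, 0 of 13 rose.

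Several macrophage genes were higher with MSC. Of 13 Kupffer cell markers tested 4 rose and 1 fell, with a median of 1.73, and 1 of the 4, Cdh5, is better known from endothelium. Marco, a scavenger receptor, had 32.6, 5.67 and 6.91 CPM with MSC and 1.05, 0.656 and 1.37 CPM without (log2 3.88 ± 0.78, edgeR adjusted p = 0.0237), with Con A+MSC replicate 1 far above the others of its group. Cd5l, a secreted protein of tissue macrophages, had 13, 8.30 and 14.9 CPM with MSC and 1.97, 0.689 and 1.74 CPM without (log2 3.03 ± 0.66, edgeR adjusted p = 0.0300). Adgre1, which encodes the F4/80 antigen, had 1.15, 1.75 and 1.65 CPM with MSC and 0.102, 0.197 and 0.222 CPM without (log2 3.14 ± 0.52, edgeR adjusted p = 0.0124). Their lowest libraries with MSC all lay above the highest without. Of the other defining markers, Clec4f, Timd4 and Vsig4 did not pass, and Vsig4 had no count in 1 library without MSC. Id3, a transcriptional inhibitor needed by Kupffer cells that other cells also express, fell, with 42.1, 45.2 and 21.0 against 110.0, 107 and 82.3 CPM (log2 -1.47 ± 0.28, edgeR adjusted p = 0.0192). The summed level of all 14 listed markers, tested or not, was 168 to 209 CPM with MSC and 189 to 225 CPM without. Nr1h3 and Slc40a1, which hepatocytes also express, and Id3 held the highest levels. Of 14 genes for complement C1q and macrophage lysosomes 4 rose and 0 fell, with a median of 1.41. They were Lyz2, lysozyme (31.3, 21.7 and 27.2 against 7.46, 6.63 and 14.4 CPM; log2 1.49 ± 0.35, edgeR adjusted p = 0.0356), C1qb (21.1, 17.6 and 23.1 against 4.80, 3.35 and 12.0 CPM; log2 1.63 ± 0.41, edgeR adjusted p = 0.0479), Laptm5 (log2 1.34) and the lysosomal protease gene Ctss (1.60). In both lists 0 rose without Con A replicate 2, and 2 Kupffer cell markers and 0 of the 14 rose without Con A+MSC replicate 2 or replicate 3.

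MHC class II genes, whose products present antigen to helper T cells, were higher as well. Of 9 tested 5 rose and 0 fell, all 9 differences were above 0, and the median was 1.20. The list's master regulator Ciita had 9.46, 8.13 and 12.0 CPM with MSC and 1.10, 1.90 and 3.40 CPM without (log2 2.22 ± 0.39, edgeR adjusted p = 0.0151). The chaperone gene Cd74 had 65.4, 64.8 and 91.7 CPM with MSC and 16.8, 16.2 and 38.1 CPM without (log2 1.64 ± 0.30, edgeR adjusted p = 0.0156), and the chain gene H2-Ab1 had 26.7, 23.8 and 27.5 CPM with MSC and 8.86, 8.01 and 17.2 CPM without (log2 1.20 ± 0.25, edgeR adjusted p = 0.0244). In all 3 genes Con A replicate 3 was the highest of the group without MSC and still below each library with MSC. H2-DMb1, chosen after its values were seen, rose by 1.43. When the mitochondrial share entered the model 5 rose, while none did without Con A replicate 2 or Con A+MSC replicate 3, and 2 did without Con A+MSC replicate 2.

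Leukocyte lists beyond macrophages mostly stayed below the threshold. Of 18 neutrophil markers 0 passed (median -0.12, and 0.16 when scaled by total counts). Lcn2, a neutrophil and hepatocyte protein that binds bacterial iron carriers, had 8084, 5164 and 4484 CPM with MSC and 5012, 10123 and 10681 CPM without, and these ranges overlapped (log2 -0.54 ± 0.30, edgeR adjusted p = 0.311). Of 10 monocyte markers 0 passed (median 0.69). Among 16 T cell and natural killer cell markers 0 rose, and Cd28, a costimulatory receptor, fell (3.47, 2.89 and 2.15 against 4.21, 11.2 and 6.99 CPM; log2 -1.39 ± 0.34, edgeR adjusted p = 0.0404), against a list median of 0.77. Cd28 passed in 2 of 6 fits with 1 library left out and did not pass when scaled by total counts. B cell markers (9 tested, median 0.24) and dendritic cell markers (7 tested, median 0.48) had 0 passing genes. Of 15 adhesion molecules and selectins 3 rose and 1 fell (median 0.43), and 0 rose without Con A replicate 2, Con A+MSC replicate 2 or Con A+MSC replicate 3. Itgal (8.55, 6.59 and 9.31 against 3.01, 2.03 and 3.70 CPM; log2 1.48 ± 0.31, edgeR adjusted p = 0.0265) and Itgb2 (log2 1.42), which encode the chains of LFA-1, an integrin by which leukocytes adhere to endothelium, rose, as did Cd44. Itga2, a collagen receptor chain, fell, with 1.51, 2.34 and 1.11 against 6.00, 8.99 and 8.43 CPM (log2 -2.23 ± 0.38, edgeR adjusted p = 0.0125).

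Interferon and cytokine genes did not pass as groups. Of 18 type I interferon response genes 0 passed (median -0.20, and 0.10 when scaled by total counts), and Isg15, a ubiquitin-like protein of that response, had 167, 117 and 181 CPM with MSC and 228, 204 and 394 CPM without, without overlap but short of the threshold (log2 -0.83 ± 0.35, edgeR adjusted p = 0.191). Of 19 interferon gamma response genes 0 passed (median 0.65), while 8 rose when scaled by total counts. Cxcl9, a chemokine that attracts activated T cells, had 2904, 3426 and 4102 CPM with MSC and 2006, 3263 and 4336 CPM without (log2 0.12 ± 0.28, edgeR adjusted p = 0.839), so the groups overlapped, with a wider range without MSC. Outside that list the interferon-inducible GTPase genes Gbp9 (131, 103 and 223 against 43.2, 35.4 and 70.2 CPM; log2 1.62 ± 0.37, edgeR adjusted p = 0.0337) and Gbp10 (log2 1.75) rose. Gbp9 and Gbp10 belong to a family of close copies, and 46.3% of the exon bases of Gbp10 are shared with another gene in GENCODE M21, so their counts are uncertain. Among 19 chemokine genes 1 rose, Cxcl13, which attracts B cells (0.339, 0.438 and 0.429 against 0, 0 and 0.0740 CPM; edgeR adjusted p = 0.0362), at a few counts per library. Of 14 cytokine genes 0 passed (median 0.74), as did 0 of 15 MHC class I genes (median -0.04, and 0.23 when scaled by total counts).

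**Figure D4:**
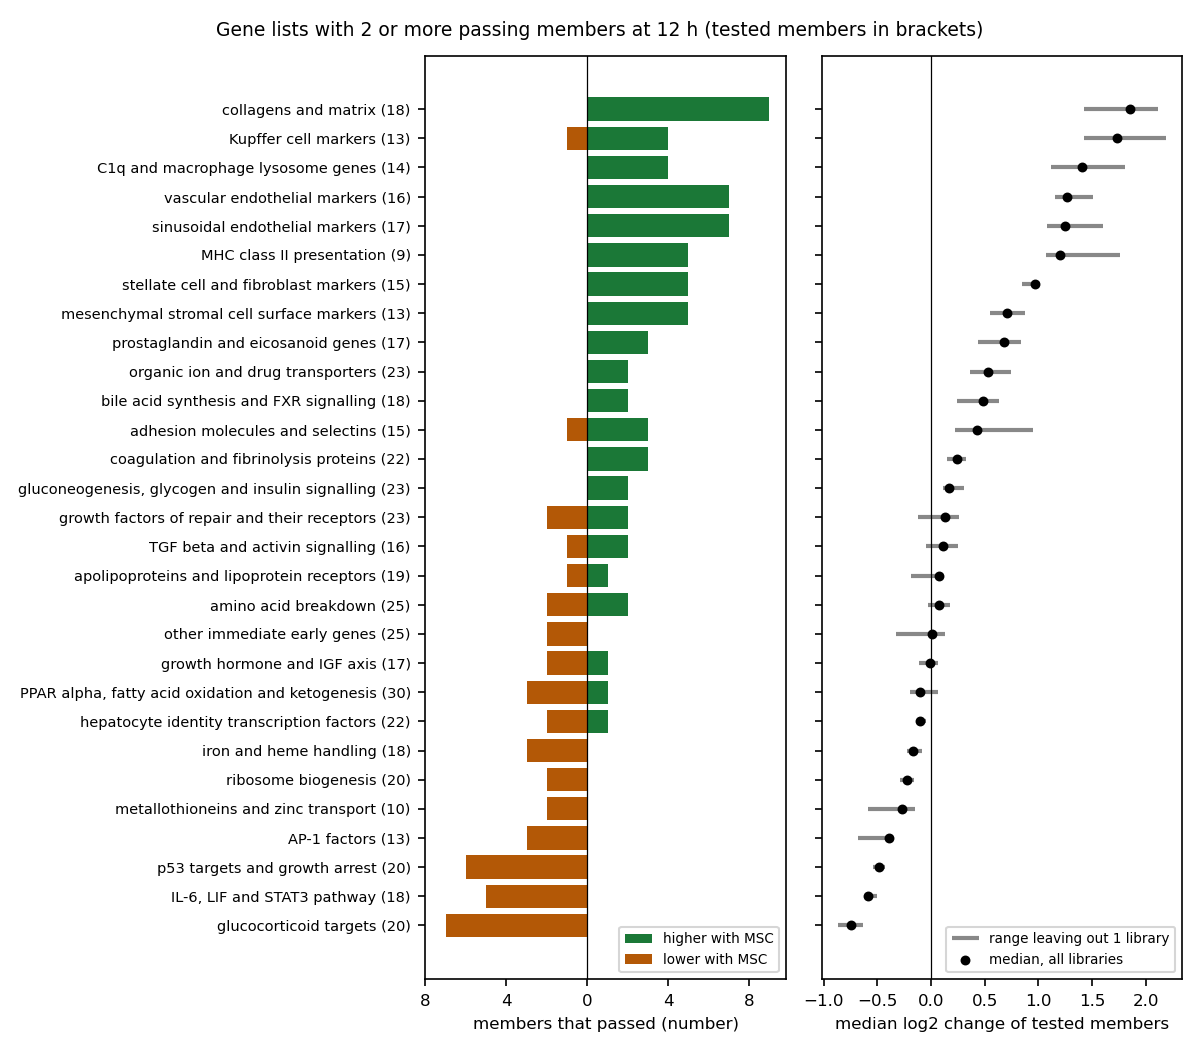
For gene lists with 2 or more passing members (2 such lists are not drawn), the left panel counts members that were higher (right of 0) or lower (left of 0) with MSC, and the right panel gives the median log2 change of its tested members (point) with its range when 1 library at a time was left out (line). Collagens and matrix have 9 members higher and a median of 1.86, and glucocorticoid targets have 7 lower and a median of -0.75.

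Enzymes expressed in hepatocytes were among the single genes that rose. Most were picked by the size or p of their change or after their values were seen. Akr1c14 and Akr1c6 encode reductases of the hydroxysteroid dehydrogenase family. Akr1c14 had 59.4, 61.3 and 102 CPM with MSC and 20.6, 17.7 and 10.9 CPM without (log2 2.18 ± 0.27, edgeR adjusted p = 0.00405). Akr1c6, chosen after its values were seen, had 73.9, 93.6 and 169 CPM with MSC and 23.3, 36.2 and 20.3 CPM without (log2 2.07 ± 0.35, edgeR adjusted p = 0.0125). Aox3, an aldehyde oxidase of the liver, had 45.2, 38.7 and 102 CPM with MSC and 8.63, 10.5 and 4.55 CPM without (log2 2.97 ± 0.46, edgeR adjusted p = 0.00834). In these 3 genes Con A+MSC replicate 3 was the highest library and no library without MSC reached the lowest with MSC. Hsd3b3, a steroid dehydrogenase, had 5.71, 7.93 and 41.7 CPM with MSC and 0.664, 1.48 and 1.29 CPM without (log2 4.03 ± 0.72, edgeR adjusted p = 0.0151). Hsd3b5 had 2.45, 3.59 and 10.7 against 0.153, 0.492 and 0.740 CPM (log2 3.66 ± 0.81, edgeR adjusted p = 0.0323). It was the only 1 of 18 male-biased liver genes that rose, and the median of that list was -0.27 (0.02 when scaled by total counts). With 1 library left out, Hsd3b5 passed in 1 of 6 fits. Hsd3b2, also chosen after its values were seen, had 1.98, 1.42 and 8.67 against 0.153, 0.131 and 0.148 CPM (log2 4.76 ± 0.73, edgeR adjusted p = 0.00791). Members of the Akr1c and Hsd3b families are similar in sequence, and how reads were divided among them is not stated. Akr1d1, which reduces steroids and bile acid precursors, had 7.14, 8.54 and 17.4 against 3.45, 3.22 and 2.74 CPM (log2 1.81 ± 0.31, edgeR adjusted p = 0.0135). Akr1c14, Akr1c6, Aox3 and Hsd3b2 passed with each library left out.

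Transport, coagulation and sugar genes of hepatocytes contributed single rises. Slc10a1 encodes NTCP, the main carrier that takes bile acids up from blood. It had 60.3, 95.5 and 104 CPM with MSC and 25.0, 35.9 and 21.5 CPM without (log2 1.66 ± 0.30, edgeR adjusted p = 0.0156). Of 23 transporters 2 rose and 0 fell (median 0.53), the second being the cation exporter gene Slc47a1 (log2 0.81). Serpind1, heparin cofactor II, which inhibits thrombin, had 154, 146 and 267 CPM with MSC and 68.9, 48.9 and 61.3 CPM without (log2 1.66 ± 0.25, edgeR adjusted p = 0.00734) and passed with each library left out. Klkb1, plasma prekallikrein (55.6, 34.5 and 72.3 against 17.4, 21.8 and 19.6 CPM; log2 1.47 ± 0.26, edgeR adjusted p = 0.0156), and F13b, a subunit of the fibrin-crosslinking factor XIII (32.9, 62.9 and 84.7 against 29.1, 21.9 and 10.5 CPM; log2 1.55 ± 0.37, edgeR adjusted p = 0.0375), rose too, so 3 of 22 coagulation genes rose and 0 fell (median 0.24). Of the exon bases of Klkb1, 43.2% are shared with another annotated gene. Slc2a2, the glucose carrier of hepatocytes, rose by 1.42, and Ppp1r3b, which directs phosphatase to glycogen, had 68.8, 77.9 and 114 against 32.4, 29.5 and 24.8 CPM (log2 1.59 ± 0.29, edgeR adjusted p = 0.0156). Sord, sorbitol dehydrogenase, had 269.9, 171 and 265 against 70.5, 117 and 82.4 CPM (log2 1.39 ± 0.25, edgeR adjusted p = 0.0152). The numbers that rose were 1 of 23 transporters and 1 of 22 coagulation genes without Con A replicate 2, and 0 and 1 without Con A+MSC replicate 3.

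Of 23 growth factors of repair and their receptors 2 rose and 2 fell, with a median of 0.13. Pdgfb, the endothelial growth factor for stellate cells, and Axl, a receptor for clearing dead cells, rose by 1.61 and 1.21, and Nrg4 and Igf1, whose levels are given with other falls, were the 2 that fell. None of the 23 rose without Con A replicate 2, Con A+MSC replicate 2 or Con A+MSC replicate 3, and 1, 0 and 0 fell. Spon2, a secreted matrix protein, had 10.1, 8.63 and 17.7 against 1.17, 3.45 and 1.48 CPM (log2 2.58 ± 0.54, edgeR adjusted p = 0.0267). Mvp, the major vault protein, had 148, 157 and 170.4 against 223, 249.7 and 256 CPM (log2 -0.62 ± 0.15, edgeR adjusted p = 0.0399).

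Other passing hepatocyte genes were spread over many functions. Elovl2, which lengthens polyunsaturated fatty acids, had 95.5, 154 and 143 against 63.5, 66.9 and 62.4 CPM (log2 1.03 ± 0.19, edgeR adjusted p = 0.0182). Hadh, of fatty acid oxidation, had 94.8, 72.6 and 87.0 against 41.0, 52.0 and 35.0 CPM (log2 0.99 ± 0.21, edgeR adjusted p = 0.0287). Mttp, which loads lipid on lipoproteins, rose by 0.64, while Apoa5, which promotes triglyceride clearance, fell (238, 361 and 205 against 504, 765 and 559 CPM; log2 -1.18 ± 0.23, edgeR adjusted p = 0.0192). Hgd and Kynu, of tyrosine and tryptophan breakdown, rose by 1.31 and 1.09, and Sds and Sdsl, of serine breakdown, fell by 1.03 and 1.22 on the log2 scale. Hrg, a secreted plasma protein, rose (343, 372 and 479.9 against 194, 248 and 222 CPM; log2 0.85 ± 0.19, edgeR adjusted p = 0.0341), as did Aldh1a1, which makes retinoic acid (1.04), and Cd1d1, which presents lipids to natural killer T cells (0.70). Ugt2b34, a glucuronidating enzyme, rose by 1.20. Axin2, a target of Wnt signalling around the central vein, rose (3.96, 5.26 and 4.79 against 2.43, 2.30 and 1.07 CPM; log2 1.27 ± 0.30, edgeR adjusted p = 0.0394) as 1 of 19 pericentral genes. The nuclear receptor gene Nr1i3 rose by 1.38, and 74.9% of its exon bases overlap a gene on the other strand, while Foxa3 fell (45.8, 43.4 and 35.4 against 81.1, 58.9 and 71.4 CPM; log2 -0.76 ± 0.16, edgeR adjusted p = 0.0265). None of these hepatocyte genes passed with each library left out. Apoa5 and Foxa3 passed in 4 of the 6 such fits, Nr1i3 in 0 and the others in 1 to 3. Foxa3, Sds and Sdsl did not pass when scaled by total counts.

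Transcripts of the Ugt1a cluster changed in opposite directions. Ugt1a10 had 10.4, 2.50 and 4.16 CPM with MSC and no count in any library without, at least 59.5-fold higher against a floor of 3 counts per library, which is 0.0953 CPM on average. Ugt1a7c had 0.834, 2.17 and 0.0452 CPM with MSC and 6.36, 19.3 and 24.6 CPM without (log2 -4.03 ± 0.79, edgeR adjusted p = 0.0216). The genes of this cluster share their last exons, and 58.1% of the exon bases of Ugt1a10 and 54.6% of those of Ugt1a7c lie in other Ugt1a genes. These values are therefore uncertain, and the part that the division of reads between the genes had in them was not tested. Gemin4, listed at 0 without MSC and 8.39, 6.07 and 6.37 CPM with MSC, at least 72.8-fold higher against the same floor, shares 89.8% of its exon bases with Glod4 on the same strand and is uncertain in the same way.

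Several of the broad hepatocyte lists had 0 or 1 passing gene, where 2.29% of all genes were higher and 1.79% lower. Of 29 cytochrome P450 genes 0 passed (median 0.26), of 28 conjugation enzymes 1 rose (median 0.05), of 20 secreted proteins 1 rose (median 0.13), and of 21 complement genes 0 passed (median 0.33). C3, the central complement protein, had 8489.5, 12174 and 12476 CPM with MSC and 10174, 9179 and 8708 CPM without, which overlapped (log2 0.24 ± 0.21, edgeR adjusted p = 0.543). Of 24 cholesterol synthesis genes 0 passed (median 0.37), and of 16 urea cycle genes 1 fell, Gpt2 (log2 -0.68). Other lists had more. Among 30 genes of fatty acid oxidation and ketogenesis 1 rose and 3 fell (median -0.10, and 0.17 when scaled by total counts). Amino acid breakdown had 2 rises and 2 falls among 25 (median 0.07), and bile acid genes 2 rises among 18 (0.48). Gluconeogenesis and glycogen genes had 2 rises among 23 (0.17). Apolipoproteins and lipoprotein receptors had 1 rise and 1 fall among 19 (0.08). Of 22 transcription factors of hepatocyte identity 1 rose, Nr1i3, and 2 fell, Foxa3 and Cebpb (median -0.10, and 0.17 when scaled by total counts). Without Con A+MSC replicate 2 or replicate 3, 0 of the 22 passed, and 1 fell without Con A replicate 2.

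Several genes of the growth arrest and DNA damage response fell with MSC. All 3 members of the Gadd45 family, small proteins that respond to stress and bind kinases of the p38 and JNK cascades and cell cycle regulators, were lower. Gadd45g had the smallest p-value of any gene with a symbol. It had 45.9, 50.3 and 34.5 CPM with MSC and 159.7, 165 and 199 CPM without (log2 -2.00 ± 0.20, edgeR adjusted p = 0.00184), so every library without MSC held more than 3-fold the level of any with MSC. Gadd45b had 4.61, 3.64 and 4.27 CPM with MSC and 10.2, 17.4 and 30.8 CPM without (log2 -2.22 ± 0.37, edgeR adjusted p = 0.0124), with low and narrow values with MSC. Gadd45a, chosen after its values were seen, had 4.74, 1.88 and 2.78 CPM with MSC and 9.93, 7.22 and 8.21 CPM without (log2 -1.44 ± 0.35, edgeR adjusted p = 0.0401). With 1 library left out in turn, Gadd45a passed in 1 of 6 fits and Gadd45b in 4. Gadd45a did not pass when scaled by total counts or when the mitochondrial share entered the model. Because all 3 genes fell in the fit as reported, their promoters were looked at. The 250 bases before their RefSeq transcription starts (GRCm38.p6) are printed, 5′ to 3′ on the gene's strand. They lie at chr6:67037408-67037657 (minus strand, Gadd45a), chr10:80929841-80930090 (plus, Gadd45b) and chr13:51846425-51846674 (plus, Gadd45g). Capitals mark matches on either strand to CCAAT, to TATAAA and to the octamer ATTTGCAT, motifs that do not overlap in these windows and were chosen after the sequences were seen.
Gadd45a: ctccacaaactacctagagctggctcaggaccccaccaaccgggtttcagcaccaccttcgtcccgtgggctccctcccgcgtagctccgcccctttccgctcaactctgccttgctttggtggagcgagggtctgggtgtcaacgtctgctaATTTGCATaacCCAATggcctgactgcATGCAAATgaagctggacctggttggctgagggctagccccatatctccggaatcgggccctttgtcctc
Gadd45b: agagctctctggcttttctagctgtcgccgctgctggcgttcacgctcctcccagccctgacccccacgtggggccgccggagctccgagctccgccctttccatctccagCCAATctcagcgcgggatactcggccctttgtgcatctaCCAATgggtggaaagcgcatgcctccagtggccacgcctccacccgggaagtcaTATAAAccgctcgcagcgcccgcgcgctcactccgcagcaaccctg
Gadd45g: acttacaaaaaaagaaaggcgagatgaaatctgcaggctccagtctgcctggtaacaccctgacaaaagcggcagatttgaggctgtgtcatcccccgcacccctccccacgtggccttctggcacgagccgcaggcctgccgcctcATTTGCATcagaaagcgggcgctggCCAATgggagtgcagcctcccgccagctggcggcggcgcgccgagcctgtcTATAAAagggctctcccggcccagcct
Each of the 3 windows holds CCAAT, as do 35.2% of 13490 promoters of tested genes. TATAAA is in the windows of Gadd45b and Gadd45g (7.24% of promoters), and ATTTGCAT is in Gadd45a at 2 places and in Gadd45g at 1 (1.30% of promoters). A match describes the letters and not a bound site.

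Other genes of this list moved with Gadd45. Plk3, a kinase activated by stress, had 46.8, 32.0 and 38.0 CPM with MSC and 87.5, 151 and 163 CPM without (log2 -1.78 ± 0.25, edgeR adjusted p = 0.00667). Btg2, an antiproliferative gene, had 18.4, 21.6 and 28.7 CPM with MSC and 41.2, 53.2 and 72.9 CPM without (log2 -1.28 ± 0.25, edgeR adjusted p = 0.0192). Cdkn1a, the cell cycle inhibitor p21, chosen after its values were seen, had 58.2, 80.2 and 64.6 CPM with MSC and 96.0, 129 and 117 CPM without (log2 -0.75 ± 0.19, edgeR adjusted p = 0.0437). In each the groups did not overlap, as in nearly all genes that passed. In all 6 of 20 p53 and growth arrest genes fell and 0 rose, with a median of -0.48 (-0.20 when scaled by total counts). The other 14, Mdm2, Bax and Ccng1 among them, did not pass. The number that fell was 3 without Con A replicate 2 or Con A+MSC replicate 3 and 2 without Con A+MSC replicate 2. Gadd45g and Plk3 passed with each library left out. Cell cycle genes themselves did not pass (0 of 22, median -0.06, and 0.23 when scaled by total counts). Ccnd1, cyclin D1, had 10.9, 19.1 and 21.8 CPM with MSC and 7.02, 5.45 and 7.84 CPM without and missed the threshold (log2 1.35 ± 0.38, edgeR adjusted p = 0.0663), with no overlap between the groups.

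Immediate early factors, which cells switch on within minutes of a stimulus, fell in part. Jund, a subunit of the AP-1 transcription factor, had 85.9, 67.3 and 58.5 CPM with MSC and 155, 191 and 199.9 CPM without (log2 -1.37 ± 0.19, edgeR adjusted p = 0.00667). Jun had 33.9, 32.7 and 28.8 against 47.1, 62.3 and 80.6 CPM (log2 -0.99 ± 0.22, edgeR adjusted p = 0.0323). Maff had 2.87, 3.22 and 2.94 against 8.27, 5.87 and 12.2 CPM (log2 -1.54 ± 0.24, edgeR adjusted p = 0.00811). These were 3 of 13 AP-1 factors, none of which rose (median -0.39, and -0.13 when scaled by total counts). The number that fell was 2 without Con A replicate 2 or Con A+MSC replicate 2 and 1 without Con A+MSC replicate 3. Of the exon bases of Jund, 52.6% overlap a predicted gene on the other strand, as do 73.5% of Mt2, 29.6% of Sds, 26.5% of Ftl1, 21.3% of Timp3 and 20.7% of Cebpb. No source used here states the strand setting of the counts, so reads of such pairs cannot be told apart. Of 25 other immediate early genes 2 fell, Btg2 and Ier3 (log2 -1.35), and the list median was 0.01.

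Several genes of the IL-6 and STAT3 pathway, which carries cytokine signals to hepatocytes, fell. Of 18 tested 5 fell and 0 rose, with a median of -0.59 (-0.33 when scaled by total counts, with 2 falls). The kinase gene Pim3, which supports cell survival, had 30.1, 36.4 and 23.3 CPM with MSC and 109.7, 110.5 and 73.6 CPM without (log2 -1.71 ± 0.25, edgeR adjusted p = 0.00667). Cish, an inhibitor of cytokine receptor signalling, had 7.85, 7.01 and 4.77 CPM with MSC and 18.3, 17.8 and 12.7 CPM without (log2 -1.31 ± 0.20, edgeR adjusted p = 0.00734). Both genes passed with each library left out. Cebpb, a transcription factor of the acute phase, had 119, 84.6 and 78.7 against 236, 176 and 152 CPM (log2 -1.0 ± 0.20, edgeR adjusted p = 0.0237). Bcl3, a nuclear partner of NF-kB, had 70.5, 56.1 and 51.0 against 97.1, 103 and 93.1 CPM (log2 -0.72 ± 0.15, edgeR adjusted p = 0.0242), and Cebpd, chosen after its values were seen, fell by 0.93 on the log2 scale. Socs3, the feedback inhibitor of IL-6 signalling, had 52.8, 108 and 53.8 CPM with MSC and 148, 143 and 105 CPM without and missed the threshold (log2 -0.88 ± 0.28, edgeR adjusted p = 0.0934), as Con A+MSC replicate 2 reached the range of the other group. Of the 21 acute phase proteins downstream 1 fell, Saa3, a serum amyloid A made outside hepatocytes as well (5278, 2707 and 2740.4 against 7992, 8392 and 8881 CPM; log2 -1.24 ± 0.28, edgeR adjusted p = 0.0323), and the list median was -0.15 (0.16 when scaled by total counts). The pathway list had 2 falls without Con A replicate 2 or Con A+MSC replicate 3 and 3 without Con A+MSC replicate 2.

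Some known targets of glucocorticoids, the adrenal hormones that restrain inflammation and raise fuel supply, fell, in the list with the most falls. Of 20 tested 7 fell and 0 rose, with a median of -0.75 (-0.48 when scaled by total counts, under which 5 fell and 2 rose). Zbtb16, a transcription factor induced by these hormones, had 8.47, 8.65 and 6.91 CPM with MSC and 24.3, 20.2 and 18.0 CPM without (log2 -1.38 ± 0.16, edgeR adjusted p = 0.00300) and passed with each library left out. Fkbp5, a chaperone of the hormone receptor chosen after its values were seen, had 52.8, 55.4 and 37.4 CPM with MSC and 133, 102 and 68.4 CPM without (log2 -1.06 ± 0.23, edgeR adjusted p = 0.0285). Pdk4, which spares glucose by blocking pyruvate dehydrogenase, had 1.77, 2.78 and 2.85 CPM with MSC and 12.1, 17.0 and 11.8 CPM without (log2 -2.46 ± 0.55, edgeR adjusted p = 0.0323). Angptl4, an inhibitor of lipoprotein lipase, had 62.5, 37.5 and 18.7 CPM with MSC and 111, 170.0 and 169 CPM without (log2 -1.92 ± 0.38, edgeR adjusted p = 0.0222). The remaining 3, Gadd45g, Cdkn1a and Mt2, are also described with other lists, and several of the 7 respond to fasting and cytokines too. The receptor gene Nr3c1 had 34.4, 41.0 and 48.8 CPM with MSC and 31.1, 36.4 and 35.4 CPM without, with overlap (log2 0.27 ± 0.16, edgeR adjusted p = 0.338). The number that fell was 3 without Con A replicate 2 or Con A+MSC replicate 2, 2 without Con A+MSC replicate 3, and 4 when the mitochondrial share entered the model.

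Both metallothionein genes fell at high levels of expression. The metallothioneins Mt1 and Mt2 bind zinc and copper. Mt1 had 3084, 2209 and 1322 CPM with MSC and 4741, 10849 and 11886 CPM without (log2 -2.05 ± 0.36, edgeR adjusted p = 0.0151). Mt2 had 1841, 1377 and 1019 CPM with MSC and 3065, 5806 and 6732 CPM without (log2 -1.88 ± 0.30, edgeR adjusted p = 0.0109). In both genes Con A replicate 1, the library with the low mitochondrial share, was the nearest to the MSC libraries. Slc30a1, a zinc exporter induced by the same metal-sensing factor, had 18.9, 18.5 and 27.4 CPM with MSC and 21.5, 12.5 and 12.8 CPM without, with overlap (log2 0.47 ± 0.27, edgeR adjusted p = 0.333). Hamp, the iron hormone hepcidin, had 576, 377 and 124 CPM with MSC and 689, 1976 and 1212 CPM without (log2 -1.85 ± 0.46, edgeR adjusted p = 0.0450). Ftl1, a ferritin chain, fell by 0.83 on the log2 scale, and Id1, a target of bone morphogenetic protein signalling, had 4.30, 3.83 and 2.73 against 5.52, 8.76 and 7.55 CPM (log2 -1.0 ± 0.25, edgeR adjusted p = 0.0451). These are 3 of 18 genes of iron and heme handling, with a list median of -0.16 (0.12 when scaled by total counts, with 0 falls). None of the 18 fell without Con A replicate 2, Con A+MSC replicate 2 or Con A+MSC replicate 3, and of the 10 genes of metallothioneins and zinc transport 1, 1 and 0 fell.

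Several other secreted factors, enzymes and carriers fell. Adcy1, an adenylate cyclase, had 1.72, 0.964 and 1.58 CPM with MSC and 4.54, 5.68 and 6.84 CPM without (log2 -2.00 ± 0.24, edgeR adjusted p = 0.00300). Syt12, a synaptotagmin of vesicle traffic, had 13.3, 16.8 and 10.9 CPM with MSC and 38.4, 32.1 and 38.5 CPM without (log2 -1.41 ± 0.16, edgeR adjusted p = 0.00300). Nnmt, which methylates nicotinamide, had 229.9, 222 and 179 CPM with MSC and 466, 465 and 557 CPM without (log2 -1.24 ± 0.19, edgeR adjusted p = 0.00767). These 3 passed with each library left out. Reg3b, an antibacterial lectin, had 1.82, 2.61 and 1.51 against 18.7, 7.51 and 12.7 CPM (log2 -2.71 ± 0.55, edgeR adjusted p = 0.0242). Nrg4, a ligand of the ErbB4 receptor, had 10.6, 7.82 and 3.25 against 22.9, 38.9 and 68.0 CPM (log2 -2.58 ± 0.45, edgeR adjusted p = 0.0135). Igf1, insulin-like growth factor 1, had 249.99, 209.8 and 206 against 322, 467 and 538 CPM (log2 -0.99 ± 0.22, edgeR adjusted p = 0.0336). Slc10a6, a carrier of steroid sulfates, and Mfsd2a, a carrier of lysophospholipids, fell by 2.39 and 2.02 on the log2 scale. Adm, adrenomedullin, a vasodilator peptide induced by hypoxia, fell (0.417, 0.372 and 0.294 against 1.05, 1.94 and 4.70 CPM; log2 -2.79 ± 0.53, edgeR adjusted p = 0.0182), as 1 of 21 hypoxia and glycolysis genes. Plin2, which coats lipid droplets, had 294, 446 and 267 against 727, 933 and 985 CPM (log2 -1.39 ± 0.35, edgeR adjusted p = 0.0460). With 1 library left out in turn, Plin2 passed in 1 of 6 fits, Igf1 in 2 and Nrg4 in 4. Plin2 and Igf1 did not pass when scaled by total counts. Bcl2l1, which protects against apoptosis, fell by 0.86 as 1 of 22 cell death genes.

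Most lists of basic cell functions had 0 or 1 passing gene. Of 31 cytosolic ribosomal protein genes 0 passed, with a median of -0.33 (-0.06 when scaled by total counts), and Rpl13a, outside that list, fell by 0.68. Of 26 proteasome genes 1 fell, Psmb5 (log2 -0.66), and of 20 ribosome biogenesis genes 2 fell, Gnl3 (-0.87) and Nop14 (-0.73), with a median of -0.23 (0.02 when scaled by total counts) and 0 falls without Con A replicate 2, Con A+MSC replicate 2 or Con A+MSC replicate 3. Of 22 genes of endoplasmic reticulum stress, 18 of the integrated stress response, 14 heat shock genes and 17 NRF2 targets 0 passed. The 25 lists with 0 passing genes hold 402 tested genes. Of these, 52 were higher and 46 lower at an unadjusted p below 0.05 in edgeR, and 27 and 24 passed in DESeq2. The 13 mitochondrially encoded genes had a median of -1.44 with 0 passing, and of 0.08 when the mitochondrial share entered the model. Of 24 nuclear genes of the respiratory chain 0 passed, with a median of -0.15 (0.11 when scaled by total counts).

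Assembled loci without a gene symbol (MSTRG entries) were 914 of the tested entries, of which 6 were higher and 37 lower. Replication-dependent histone genes, whose messages normally lack a poly(A) tail, were noticed in the same direction after their values were seen. Of 38 tested 6 fell and 0 rose (H4c2, H4c3, H4c4, H4c8, H1f4 and Hist1h4m), 37 differences were below 0, and the median was -0.92. H4c4 had 0.287, 0.197 and 0.248 CPM with MSC and 0.587, 1.57 and 4.48 CPM without (log2 -3.15 ± 0.61, edgeR adjusted p = 0.0192). H1f4 had 0.182, 0.329 and 0.316 CPM with MSC and 0.460, 1.61 and 2.44 CPM without (log2 -2.40 ± 0.53, edgeR adjusted p = 0.0323), both at low levels. Histone genes have near-identical copies, so single members are uncertain. Con A replicate 3, the library with the highest mitochondrial share, held the highest level of both. The part of library quality in these values was not tested.

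The MSC effect at 12 h was set against that at 6 h in 1 model, with no library shared between the 2 effects. The difference passed for 18 of 14275 genes (0.126%), 9 higher and 9 lower at 12 h, and at 6 h itself 14 genes had passed (0.0981%). Hpgd had 80.6 ± 15.3 CPM with MSC against 133 ± 31.4 CPM with Con A alone at 6 h (mean ± SD, n = 3), a log2 change of -0.72, against 1.81 at 12 h, and the difference was 2.52 ± 0.30 (edgeR adjusted p = 0.00912). Csrp1, a muscle and stellate cell protein of the cytoskeleton, had 14.1 ± 1.03 CPM with MSC against 33.4 ± 10.3 CPM with Con A alone at 6 h and 16.0 ± 5.04 CPM with MSC against 4.97 ± 0.558 CPM without at 12 h, with changes of -1.24 and 1.68 (difference 2.92 ± 0.36, edgeR adjusted p = 0.00912). For both genes the mean with MSC was lower at 6 h and higher at 12 h, but the 6 h changes did not pass (edgeR adjusted p = 0.196 for Hpgd and 0.0791 for Csrp1). Plvap, Flt4, Gimap4 and Jam2, which endothelium expresses, had changes between -0.33 and -0.21 at 6 h and between 1.16 and 1.72 at 12 h. Their differences ran from 1.36 ± 0.22 to 2.00 ± 0.33 (edgeR adjusted p from 0.0427 to 0.0499). In the endothelial lists the difference passed for 1 of 17 sinusoidal and 0 of 16 general vascular markers.

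Syt12 had 107 ± 3.16 CPM with MSC against 80.5 ± 4.22 CPM with Con A alone at 6 h and Zbtb16 had 63.9 ± 4.46 CPM with MSC against 52.5 ± 6.98 CPM with Con A alone, and the differences were -1.83 ± 0.23 and -1.66 ± 0.23 (edgeR adjusted p = 0.00912 and 0.0163). Both were lower at 12 h than at 6 h in both groups and lower still with MSC. Of the 327 genes that rose at 12 h, 160 had a 6 h change in the same direction, and of the 255 that fell, 167 did. The same count over all genes tested was not made, so these numbers cannot show whether the 2 effects share a direction. When Con A 12 h replicate 2 was left out, 0 genes had a higher and 3 a lower effect at 12 h.

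**Figure D5:**
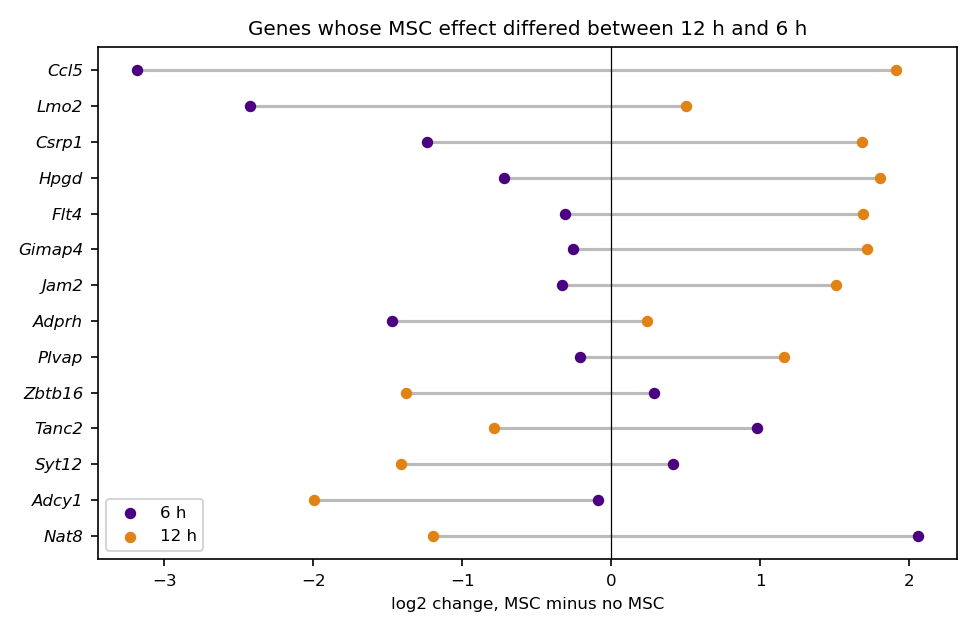
Log2 change with MSC at 6 h (purple) and at 12 h (orange), joined by a grey line, for named genes whose MSC effect differed between the times. Ccl5 moves from -3.18 to 1.91 and Hpgd from -0.72 to 1.81.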

How the data were processed

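Per the labels' protocols, liver RNA was extracted with Trizol, captured with oligo(dT), primed with random hexamers and sequenced from circularized single-strand libraries. Per the submitters' processing notes, the genome build was GRCm39 and the tools were StringTie 2.1.2, HISAT2 2.0.4 and Bowtie2 2.2.5, whose roles are not stated. The authors deposited whole-number counts per gene, 1 table per group. Which program counted them, and with which strand setting, is not given in the sources used here. From these counts, edgeR 4.0.16 (TMM, filterByExpr, quasi-likelihood test, two-sided) was fitted to all 12 libraries with a mean per group and 8 residual degrees of freedom, with Benjamini-Hochberg adjustment over 14275 genes. The procedure was tested on simulated data. It recovered 31 of 100 simulated 2-fold changes and 77 of 100 4-fold changes, with 10 unchanged genes called. A gene that did not pass may therefore still have changed. A floor of 3 counts per library, 0.0657 to 0.111 CPM at 12 h, covers counting error only. Overlapping exons came from GENCODE M21 (GRCm38) and promoters from RefSeq, matched by symbol.

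Named genes were passing genes with non-overlapping groups: the 12 largest changes each way at 5 CPM or more, the 8 smallest p each way, the 12 highest levels each way, up to 4 per list (2 where none passed) and 5 each way for the difference between times. The comparison, the 73 gene lists and the rule were chosen with earlier results of these data known. A few genes are not reported here. Alternatives were DESeq2 1.42.0, other scalings, filters and covariates, a replicate block, 12 h libraries alone and leaving out each library.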

Additional observations from a re-analysis of the deposited data

Results flagged for a closer look

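The MSC effect differed between 12 h and 6 h, by an interaction term in edgeR, for the following named genes, given as log2 effect at 12 h minus effect at 6 h. Of genes expressed in endothelium, Plvap had 1.36, Flt4 2.00, Gimap4 1.97 and Jam2 1.84. Endothelial lists as a whole did not follow, as the difference passed for 1 of 17 sinusoidal and 0 of 16 vascular markers. Hpgd had 2.52 and Csrp1 2.92. Syt12 had -1.83, Zbtb16 -1.66 and Adcy1 -1.91, each with a fall at 12 h.

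For 4 genes the larger effect was at 6 h and the gene did not pass at 12 h. Lmo2, a cofactor of blood and endothelial transcription, differed by 2.93, with 4.00 ± 0.486 CPM with MSC against 21.5 ± 8.66 CPM with Con A alone at 6 h and 3.78, 3.86 and 4.34 against 2.60, 2.07 and 3.81 CPM with and without MSC at 12 h (edgeR adjusted p of the difference = 0.0201). Adprh, which removes ADP-ribose from proteins, differed by 1.71 (edgeR adjusted p = 0.0433), with 9.31, 12.3 and 12.8 against 8.73, 9.35 and 11.1 CPM at 12 h. Nat8, an acetyltransferase, differed by -3.26 (edgeR adjusted p = 0.0191), with 1.04, 0.526 and 0.791 against 1.23, 2.07 and 2.15 CPM at 12 h. Ccl5, a chemokine for T cells, differed by 5.09 (edgeR adjusted p = 0.0433), from 2.45 ± 1.17 CPM with MSC against 22.3 ± 7.31 CPM with Con A alone at 6 h to 2.03, 5.65 and 7.93 against 0.485, 1.31 and 2.44 CPM with and without MSC at 12 h. Tanc2, a scaffold protein, differed by -1.77 (edgeR adjusted p = 0.0191) and fell at 12 h (4.95, 5.56 and 4.25 against 8.35, 8.33 and 8.80 CPM; log2 -0.79 ± 0.18, edgeR adjusted p = 0.0332). Jam2, Ccl5 and Adprh were named after their values were seen.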

How the results depend on the processing

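With 1 library of 12 h left out, the number of genes higher with MSC at 12 h ranged from 37 to 572 and the number lower from 29 to 495. Other settings gave, for genes higher and lower, 83 and 52 (12 h libraries alone), 762 and 643 (DESeq2), 24 and 26 (against a 1.5-fold change), 59 and 55 (mitochondrial share as a covariate), 734 and 95 (scaling by total counts) and 180 and 133 (replicate block). In the other settings, which were other filters on low counts, DESeq2 size factors and mitochondrially encoded genes removed, both counts stayed within 1.5 times those reported. For genes with a higher and a lower effect at 12 h than at 6 h, leaving out 1 library gave 0 to 95 and 3 to 74. The counts were 430 and 224 with DESeq2, 5 and 4 with the mitochondrial covariate, 3 and 8 with mitochondrially encoded genes removed, 25 and 20 without a filter, and 187 and 24 with total counts. The cause of these shifts was not tested, apart from fewer samples in the fits that leave some out.

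No named gene that passed changed direction in any setting. Of 142 such genes, 43 passed in the 12 h libraries alone, 39 without Con A replicate 2, 35 without Con A+MSC replicate 3, 34 with the mitochondrial covariate and 31 against a 1.5-fold change. Among genes that did not pass, the log2 difference of Lcn2 turned to 0.025 with the mitochondrial covariate, and that of Cxcl9 ranged from -0.14 to 0.38 with 1 library left out and was 0.64 with the mitochondrial covariate. Same-numbered libraries of the 2 groups did not deviate together (correlations -0.23, -0.15 and -0.08), and no library of either group correlated best with its own number. With 3 libraries per group such correlations cannot show whether the numbers pair the samples. No label states a pairing, so the replicate block is given only as a setting. The deposited tables hold the 13 protein-coding mitochondrial genes alone, so their share could not be computed with other mitochondrial genes.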
